A study of Mus musculus with 8 samples.

Results

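The genes described here are 9 factors that mark endocrine progenitors of the pancreas or immature beta cells: Neurog3, Fev, Sox4, Sox11, Hes1, Gata4, Gata6, Myc and Cd81. They were taken as a fixed list of symbols, and all 9 have values in the 8 deposited libraries, out of 17401 genes with values and 20715 genes listed. The libraries hold RNA of pancreatic islets from C57BL/6 mice aged 12 weeks: 4 libraries are ob/+ and 4 are ob/ob. The ob allele is a mutation of Lep, the gene of the fat cell hormone leptin. The ob/+ controls carry 1 mutant copy and the ob/ob mice 2, so neither group is free of the allele, and Lep itself has no value in any of the 8 libraries. The islets were freed with collagenase, purified on a density gradient and picked by hand. Whether a library is 1 mouse or a pool is not stated, so the spread behind each p-value is that among libraries and could be technical.

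In the embryonic pancreas NEUROG3, a basic helix-loop-helix activator, switches epithelial cells to the endocrine fate, and HES1, an effector of Notch signalling, holds it off by repressing Neurog3. FEV and the SOX proteins SOX4 and SOX11 act in endocrine precursors, while GATA4 and GATA6 act earlier, in the progenitor epithelium. In adult islets low or absent levels of progenitor factors are regarded as a sign of mature cells, and MYC, a growth-promoting transcription factor, and CD81, a tetraspanin of the cell surface, have been used as signs of immature or dedifferentiating beta cells.

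Islet origin was clear from the transcripts. The insulin genes Ins1 and Ins2 together took 42.0% to 54.3% of summed FPKM (fragments per kilobase of transcript, scaled to library size) in ob/+ and 57.1% to 65.6% in ob/ob. A panel of 44 digestive enzyme and Reg genes of exocrine cells took 7.71% to 26.2% in ob/+ and 3.45% to 12.0% in ob/ob, and it was highest in ob/+ 4 and ob/ob 1 within their groups. The summed FPKM of a library was between 820968 and 880570 in the ob/+ group, below the ob/ob group at 920734 to 1004230.

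Of the 9 genes 2 fell in ob/ob islets and none rose. Fev fell to 0.272 of its ob/+ mean and Gata6 to 0.433, each without overlap between the groups. Neurog3, Sox4, Hes1, Gata4, Myc and Cd81 did not pass the test, and Sox11 was too low to be tested. Across the 11747 genes tested with limma on log2(FPKM + 1), 18.8% passed a Benjamini-Hochberg adjusted p of 0.05, 10.6% as lower and 8.21% as higher in ob/ob. The 2 of 8 tested members are near that background share. Groups that do not overlap were found for 20.5% of tested genes, 10.7% as lower.

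Promoter sequence upstream of the RefSeq transcription start (GRCm38.p6) is shown for the member that fell most and for Neurog3, the factor at the head of the programme; 5 of the 9 genes, Fev, Neurog3, Cd81, Sox4 and Sox11, had an entry. Both stretches of 250 bases run 5′ to 3′ on the gene's own strand and end at the base before the start. In Fev (chr1:74885409-74885658, minus strand) capitals mark the GATA core (letters GATA) and the ETS core (letters GGAA) on either strand.

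Fev: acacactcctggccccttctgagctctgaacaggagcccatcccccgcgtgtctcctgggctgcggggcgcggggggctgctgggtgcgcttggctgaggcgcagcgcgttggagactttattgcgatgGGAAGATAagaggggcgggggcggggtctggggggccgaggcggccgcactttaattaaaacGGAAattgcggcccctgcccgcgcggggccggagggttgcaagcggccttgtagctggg

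In Neurog3 (chr10:62132840-62133089, plus strand) capitals mark the E-box (letters CANNTG), the class of site that basic helix-loop-helix proteins such as NEUROG3 and MYC bind; the N-box searched for HES proteins (letters CACNAG) was not in this window.

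Neurog3: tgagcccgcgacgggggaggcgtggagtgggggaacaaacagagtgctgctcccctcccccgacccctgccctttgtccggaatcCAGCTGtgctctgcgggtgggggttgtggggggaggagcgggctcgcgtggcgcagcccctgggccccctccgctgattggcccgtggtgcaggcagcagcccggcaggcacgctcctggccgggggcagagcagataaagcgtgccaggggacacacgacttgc

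The Fev window held 1 GATA core directly beside 1 of its 2 ETS cores, and no E-box. The Neurog3 window held 1 E-box, 1 GATA core and 2 ETS cores, of which the E-box alone is in capitals. Such short matches are common: among 32851 upstream windows of the same 250 bases in the table, 53.6% held a GATA core, 93.4% an ETS core, 66.2% an E-box and 36.7% an N-box. Both windows were rich in G and C, with 68.0% for Fev and 71.2% for Neurog3 against a median of 52.4%.

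Fev (chromosome 1, 74881509 to 74885419, minus strand) encodes an ETS transcription factor, also called PET1, that appears in endocrine precursors after NEUROG3 and is known in adult beta cells and serotonergic neurons for switching on serotonin genes. In ob/+ islets it was at 10.17, 8.61, 11.01 and 10.07 FPKM in libraries 1 to 4. In ob/ob islets it was at 2.11, 2.57, 3.18 and 2.98 FPKM. Every ob/ob library lay far below every ob/+ library, with the lowest ob/+ value well above the highest of ob/ob. The means were 9.96 ± 0.997 and 2.71 ± 0.474 FPKM (SD, n = 4 each), 3.68-fold lower in ob/ob, and the log2 fold change was -1.57 ± 0.13 (SE; limma adjusted p = 1.80e-09). By its p-value Fev ranked 43 among the 11747 tested genes. Under 22 other settings of scaling, filter, model and libraries its change ran from -1.85 to -1.47 and passed the threshold in each.

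Gata6 (chromosome 18, 11052064 to 11085635, plus strand) encodes a zinc finger factor that, with GATA4, is needed for the pancreas to form. It was at 5.27, 5.53, 4.91 and 4.43 FPKM in ob/+ 1 to 4. In ob/ob 1 to 4 it was at 1.79, 2.14, 2.37 and 2.42 FPKM. The groups again did not overlap, and both were tight, with a coefficient of variation of 9.47% in ob/+ and 13.2% in ob/ob. The mean fell from 5.04 ± 0.477 to 2.18 ± 0.287 FPKM (SD, n = 4 each), 2.31-fold, with a log2 fold change of -0.93 ± 0.12 (SE; limma adjusted p = 3.73e-06). The call held under each of the 21 other settings in which Gata6 was tested (-1.18 to -0.83). For both genes the exact two-sided permutation test on FPKM gave p = 0.0286, the smallest that 4 against 4 libraries allow.

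**Figure D1:**
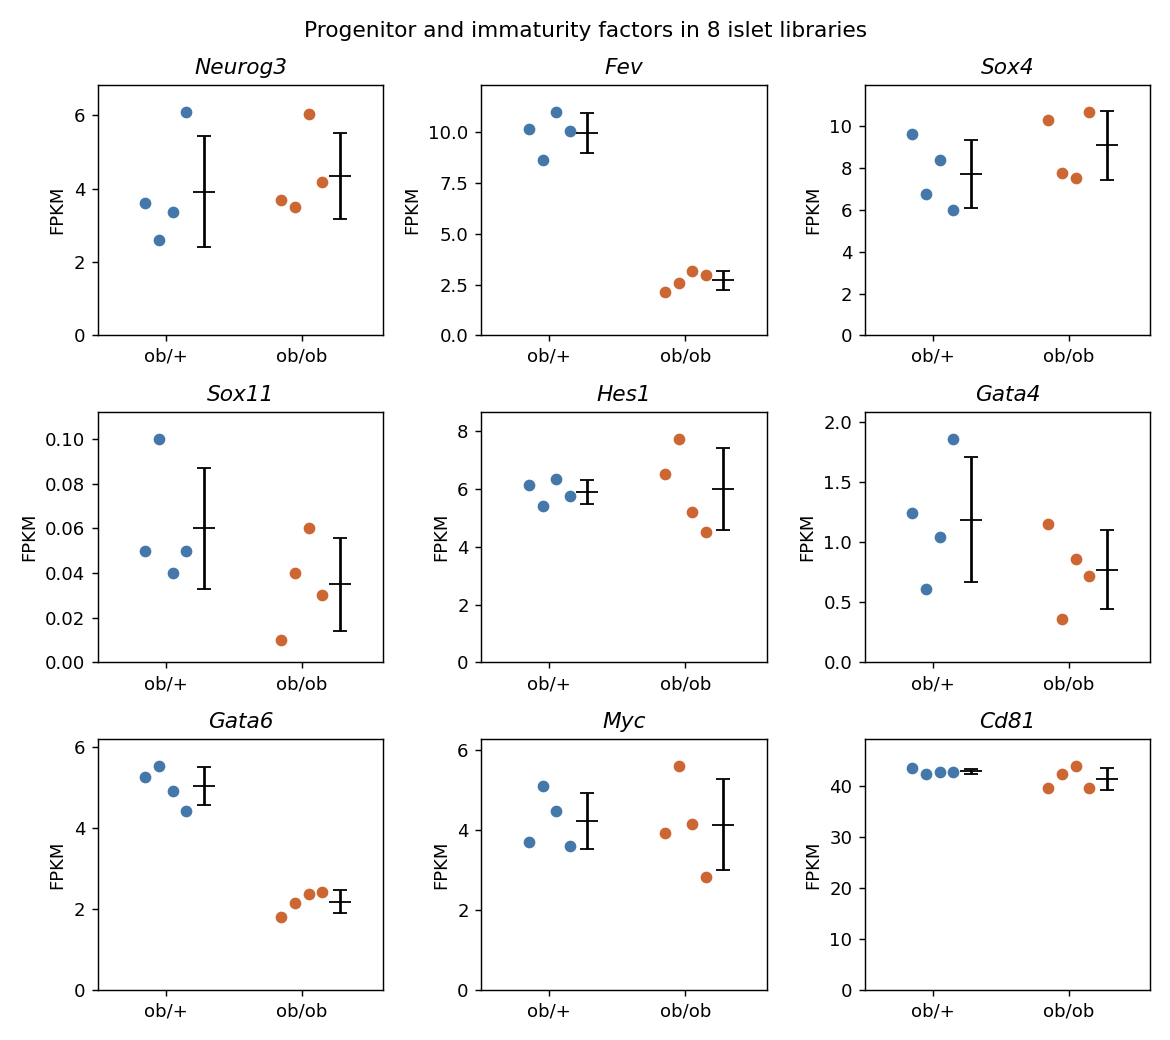
FPKM of the 9 genes in each of the 4 ob/+ and 4 ob/ob libraries (points), with the mean and SD of each group beside them; the vertical axes differ between panels and start at 0. Fev (8.61 to 11.01 against 2.11 to 3.18 FPKM) and Gata6 (4.43 to 5.53 against 1.79 to 2.42 FPKM) are separated by genotype, and the other 7 genes overlap.

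Summed markers of alpha, delta and PP cells moved in the same direction as Fev and Gata6. In bulk RNA fewer cells of a type and less RNA per cell cannot be told apart. Summed FPKM of 8 alpha cell markers was 25350 to 31870 in ob/+ and 8997 to 12440 in ob/ob, 2.68-fold lower by the means, with 5 of the 8 lower and 2, Ttr and Gc, higher, the call of Ttr being lost under 7 of 22 other settings. For 6 delta cell markers the sum was 5577 to 6232 against 1061 to 1506, 4.45-fold lower, with 3 of 5 tested members lower. The 3 PP cell markers summed to 6923 to 11680 against 2718 to 4570, 2.64-fold lower, and both tested members were lower. These sums were mostly hormone RNA, with ob/+ means of 26900 FPKM for Gcg, 5640 for Sst, 6360 for Ppy and 3380 for Pyy. The separation of the genotypes by the 3 sums is thus mainly that of these hormone genes. None of the markers in the 3 lists was at 0 in all libraries.

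Markers of beta cells went the other way in sum, at 397200 to 500300 FPKM in ob/+ against 586900 to 709400 in ob/ob. That sum was mostly Ins1, Ins2 and Iapp, with ob/+ means of 102000, 314000 and 28000 FPKM. Of the 8 members 3 (Mafa, Slc2a2 and Ucn3) fell and 2 (Ins2 and Iapp) rose, Ins2 losing its call under 4 of 22 other settings. Endothelial markers overlapped (222.3 to 268.5 against 217.2 to 306.9), with none of 9 called by limma, as did mesenchymal markers (81.30 to 91.51 against 70.73 to 97.01), with 3 of 8 tested lower and 2 higher. With the digestive enzyme genes left out of the scaling 7 of the 9 endothelial and 6 of the 8 mesenchymal markers were lower. The other 2 mesenchymal markers were higher. Over all genes tested under that scaling 7112 of 11780 were lower. In the values as deposited the 3 mesenchymal markers that fell were the collagen genes Col1a1, Col1a2 and Col3a1. The 2 that rose were Rgs5, from 33.5 ± 3.58 to 51.9 ± 3.53 FPKM, and Acta2, from 6.77 ± 1.91 to 11.8 ± 1.75 (SD, n = 4 each). Acta2 lost its call under 2 of 22 other settings. The part of any of these cell types in the falls of Fev and Gata6 was not tested.

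**Figure D2:**
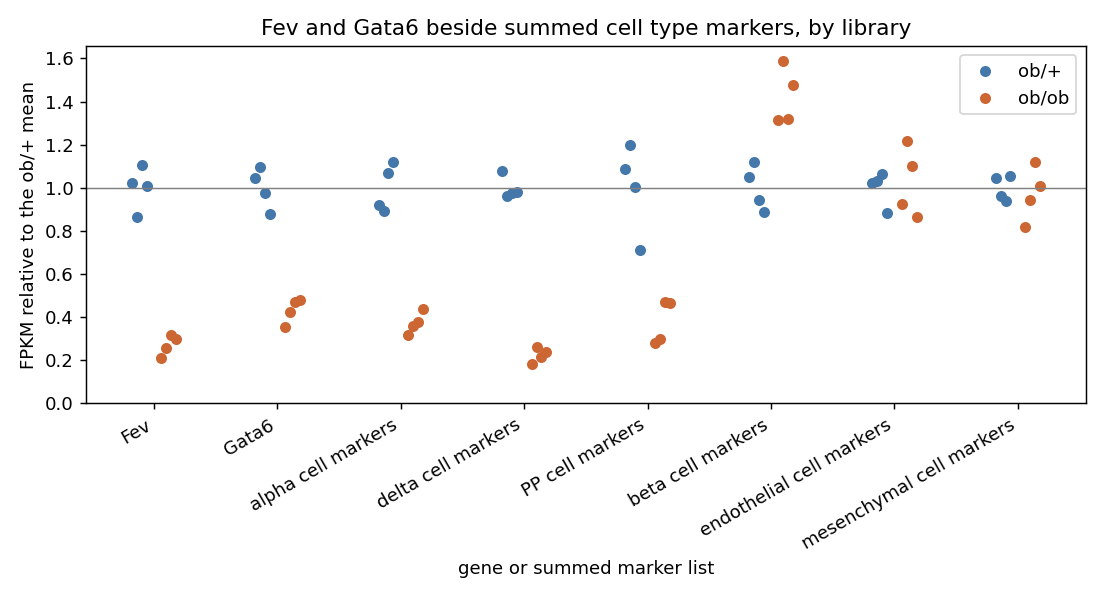
Fev, Gata6 and the summed FPKM of 6 cell type marker lists in each library, divided by the mean of the ob/+ libraries (horizontal line at 1); points are libraries, coloured by genotype. Fev, Gata6 and the alpha, delta and PP sums lie lower in every ob/ob library than in every ob/+ library. The beta cell sum lies higher, and the endothelial and mesenchymal sums overlap. The alpha, delta, PP and beta cell sums are mostly hormone RNA.

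The tested genes whose profiles over the 8 libraries lay closest to Fev, by the root mean square difference of log2(FPKM + 1) after centring each gene on its own mean, were Irx1 (0.090), Rtp1 (0.115) and Gcg (0.124). Irx1, a homeobox factor of alpha cells, was at 7.67 ± 0.246 FPKM in ob/+ and 1.98 ± 0.458 in ob/ob (SD, n = 4 each), and Gcg encodes glucagon, the hormone of alpha cells. Closest to Gata6 were Dennd2a (0.068), Lingo1 (0.075) and Sfrp1 (0.080), a secreted Wnt antagonist at 1.36 ± 0.123 against 0.235 ± 0.0835 FPKM (SD, n = 4 each). These are descriptions of likeness in 8 libraries that differ by genotype, with no test. Rtp1, Dennd2a and Sfrp1 met the filter through the ob/+ libraries alone, so a fall was built into their entering the comparison.

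Neurog3 (chromosome 10, 62133090 to 62134763, plus strand) was present at a low level in every library. It was at 3.62, 2.59, 3.36 and 6.10 FPKM in ob/+ 1 to 4 and at 3.68, 3.49, 6.04 and 4.18 FPKM in ob/ob 1 to 4. In each group 1 library, ob/+ 4 and ob/ob 3, stood above the other 3, and the groups overlapped over most of their range. The means were 3.92 ± 1.52 and 4.35 ± 1.17 FPKM (SD, n = 4 each). The log2 fold change of 0.14 had a 95% interval from -0.29 to 0.58 (limma adjusted p = 0.670), so no difference was detectable with this spread. Its sign turned to -0.10 with the digestive enzyme genes left out of the scaling.

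The genes around Neurog3 in the endocrine programme divided by gene. Of 19 tested genes of a list of NEUROG3 targets and differentiation factors, Fev among them, 5 fell and 2 rose, and the median log2 fold change was -0.03, against -0.07 over all tested genes, turning to 0.09 with the 10 most abundant genes out of the scaling. The calls were 36.8% of the 19, beside 18.8% over all tested genes. With the digestive enzyme genes out of the scaling the median was -0.33 and 12 of the 19 were lower. Over all 11780 genes tested under that scaling the median was also -0.33, and 7112 were lower. Rcor2, a corepressor subunit, was at 2.32 ± 0.302 against 0.963 ± 0.249 and Neurod1, a direct target of NEUROG3, at 91.6 ± 11.7 against 59.1 ± 4.88 FPKM (SD, n = 4 each), both lower. Rfx6 (43.1 ± 4.12 against 68.9 ± 4.22) and the kinase gene Pak3 (6.70 ± 1.66 against 11.6 ± 1.07; SD, n = 4 each) rose. Among those that did not pass were Pax6, Nkx2-2, Myt1 and St18, each within 0.11 of 0 on the log2 scale, and Insm1 at -0.26 (limma adjusted p = 0.102). Pax4 and Neurod4, further targets, had no value.

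A list of genes of the serotonin programme in which FEV acts was also counted. A link of their changes to that of Fev was not tested. Of 10 tested genes of that list, 3 fell and 1 rose, 40.0% called beside 18.8% over all tested genes. Htr3a, a subunit of the serotonin-gated ion channel, was at 4.06, 2.93, 4.21 and 2.84 FPKM in ob/+ 1 to 4 and at 0.08, 0.38, 0.45 and 0.31 FPKM in ob/ob 1 to 4. Its mean was 11.5-fold lower in ob/ob with no overlap. It met the filter through the ob/+ libraries alone, so a fall was built into its being tested; with no filter on low values the limma adjusted p was 1.08e-05. Gch1, the first enzyme of tetrahydrobiopterin synthesis, fell from 31.3 ± 2.17 to 19.4 ± 0.804 FPKM, and the amine-degrading enzyme Maob from 64.9 ± 1.95 to 33.3 ± 3.21 (SD, n = 4 each).

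Ddc, which makes serotonin from its precursor, rose from 117 ± 8.94 to 176 ± 6.81 FPKM (SD, n = 4 each; limma adjusted p = 2.19e-05). The rate-limiting enzymes lay below the filter: Tph1 reached at most 0.01 FPKM in any library, and Tph2 was at 0.22 to 0.61 FPKM in ob/+ and 0.55 to 0.77 in ob/ob. The vesicular transporter Slc18a2 was also below it, at 0.78 to 1.29 in ob/+ and 0.40 to 0.69 in ob/ob. The list's median log2 fold change was -0.02, 0.07 with the 10 most abundant genes out of the scaling and -0.31, with 6 of 10 lower, with the digestive enzyme genes out of it. Of the ETS family, 20 genes were tested: Fev and Elf4 fell and Etv1 rose (limma adjusted p = 0.0388 and 0.0486 for Elf4 and Etv1, lost under 8 of 17 and 12 of 22 other settings). Over all tested genes 18.8% were called. With the digestive enzyme genes left out of the scaling 12 of the 20 were lower and none higher. That scaling called 7112 lower and 475 higher of 11780 over all tested genes. The median log2 fold change under it was -0.31 for the ETS family, as for the serotonin list, and -0.33 over all tested genes.

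Sox4 (chromosome 13, 28948919 to 28953713, minus strand) encodes a high-mobility-group factor that promotes endocrine differentiation. It was at 9.62, 6.76, 8.40 and 6.01 FPKM in ob/+ 1 to 4. In ob/ob 1 to 4 it was at 10.31, 7.77, 7.54 and 10.69 FPKM. The ob/ob values reached higher, but both groups shared the range from 7.54 to 9.62. The log2 fold change was 0.22 (95% interval -0.08 to 0.51; limma adjusted p = 0.316), and it was -0.05 with the digestive enzyme genes left out of the scaling. An antisense gene, Gm26735, shares 2616 exon bases with Sox4, and since the sources do not state strand-aware counting, reads of the pair cannot be told apart. Shorter antisense overlaps of 273, 104 and 93 exon bases touch Neurog3, Cd81 and Gata6.

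Sox11 (chromosome 12, 27334264 to 27342574, minus strand), the closest relative of Sox4, was near 0. It was at 0.05, 0.10, 0.04 and 0.05 FPKM in ob/+ 1 to 4 and at 0.01, 0.04, 0.06 and 0.03 FPKM in ob/ob 1 to 4. No library came near the 1 FPKM that 4 libraries must reach for the test, and no fold change is given. Sox12, the remaining member of this subgroup, was at 7.97 ± 0.848 and 6.88 ± 0.662 FPKM (SD, n = 4 each; limma adjusted p = 0.302).

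Of 19 genes of the SOX family 17 had values and 6 were tested, and only Sox10 passed. That is 16.7% called, beside 18.8% over all tested genes. With the digestive enzyme genes left out of the scaling 4 of the 6 were lower, as were 7112 of 11780 tested genes. Sox10 kept its call under the 16 other settings in which it was tested. Sox10, a factor of Schwann cells and other neural crest cells, was at 1.16, 1.16, 1.10 and 1.16 FPKM in ob/+ and at 0.10, 0.19, 0.30 and 0.25 FPKM in ob/ob, 5.45-fold lower. Sox10 met the filter through the 4 ob/+ libraries alone, so a fall was built into its being tested; with no filter the limma adjusted p was 3.11e-05. The 6 Schwann cell markers summed to 11.48 to 13.67 FPKM in ob/+ and 7.74 to 9.98 in ob/ob. Sox9, which maintains the progenitor epithelium and later marks ducts, was at 0.788 ± 0.148 and 0.498 ± 0.196 FPKM (SD, n = 4 each), below the filter.

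Hes1 (chromosome 16, 30064384 to 30067796, plus strand) was at 6.13, 5.41, 6.34 and 5.76 FPKM in ob/+ 1 to 4. In ob/ob 1 to 4 it was at 6.52, 7.74, 5.20 and 4.53 FPKM, with values on both sides of the whole ob/+ range. The means were nearly equal, 5.91 ± 0.411 and 6.00 ± 1.43 FPKM (SD, n = 4 each). The 95% interval of the log2 fold change ran from -0.28 to 0.28 (limma adjusted p = 0.993). The coefficient of variation was 6.95% in ob/+ and 23.8% in ob/ob, a difference that was not tested.

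Around Hes1, in the Notch pathway, ligands on 1 cell activate NOTCH receptors on the next, and the released receptor fragment joins RBPJ to switch on Hes and Hey genes. Of 30 tested pathway genes 6 fell and 1 rose, 23.3% called beside 18.8% over all tested genes. Among the ligands, Dll1 fell from 1.81 ± 0.199 to 0.635 ± 0.103 FPKM and Jag2 from 6.00 ± 1.58 to 3.81 ± 0.675 (SD, n = 4 each), while Dll4 and Jag1 did not pass. None of the receptors Notch1, Notch3 and Notch4 passed; Notch1 was at 5.49 ± 0.769 against 4.08 ± 0.338 FPKM (SD, n = 4 each; limma adjusted p = 0.0520), and Rbpj was at 5.80 ± 0.579 against 5.38 ± 0.597. Notch2 was below 1 FPKM in every library. The fringe genes Lfng and Mfng, whose products add sugars to the receptors, were lower.

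The Hey genes, relatives of Hes1 and also Notch targets, differed in direction. Hey1 was at 1.48, 1.5, 1.33 and 0.80 FPKM in ob/+ 1 to 4 and at 2.87, 3.27, 2.94 and 2.75 FPKM in ob/ob 1 to 4, higher in all 4 ob/ob libraries than in any ob/+ library (limma adjusted p = 5.23e-05). Heyl went the opposite way, from 1.72 ± 0.167 to 0.723 ± 0.232 FPKM (SD, n = 4 each). Hey2 fell too, from 2.03 ± 0.520 to 1.28 ± 0.270 FPKM (SD, n = 4 each; limma adjusted p = 0.0430), a call lost under 11 of 21 other settings. The calls of Jag2 and Mfng were lost under 8 and 9 of 21. With the digestive enzyme genes left out of the scaling 24 of the 30 pathway genes were lower, as were 7112 of 11780 tested genes. The count of falls thus depends on the scaling. It was 11 without ob/+ 4 and 1 without any of the other 3 ob/+ libraries, with fewer genes tested. With a filter of 5 FPKM none of the 14 tested pathway genes was called. With a fold threshold of 1.2, 2 fell and 1 rose. Hey1 kept its call under the 21 other settings in which it was tested. Dll1 and Heyl met the filter through the ob/+ libraries alone, so their falls were built into their being tested; with no filter on low values their limma adjusted p-values were 0.000231 and 0.00196.

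In the wider family of HES, HEY and ID genes and their TLE corepressors 5 of 16 tested genes fell and 3 rose. Over all tested genes 18.8% were called, 10.6% as lower and 8.21% as higher. With the digestive enzyme genes out of the scaling 9 of the 16 were lower and 2 higher. That scaling called 7112 lower and 475 higher of 11780 over all tested genes. Bhlhe41, a circadian repressor, fell from 8.57 ± 1.78 to 3.93 ± 0.473 FPKM. Tle3 fell from 19.3 ± 3.66 to 9.71 ± 1.67, and Tle1, another corepressor that HES proteins recruit, rose from 7.86 ± 1.69 to 13.8 ± 2.01 (SD, n = 4 each). Hes6, an inhibitor of HES1, was at 18.0 ± 3.26 and 15.6 ± 1.07 FPKM (SD, n = 4 each; limma adjusted p = 0.309).

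**Figure D3:**
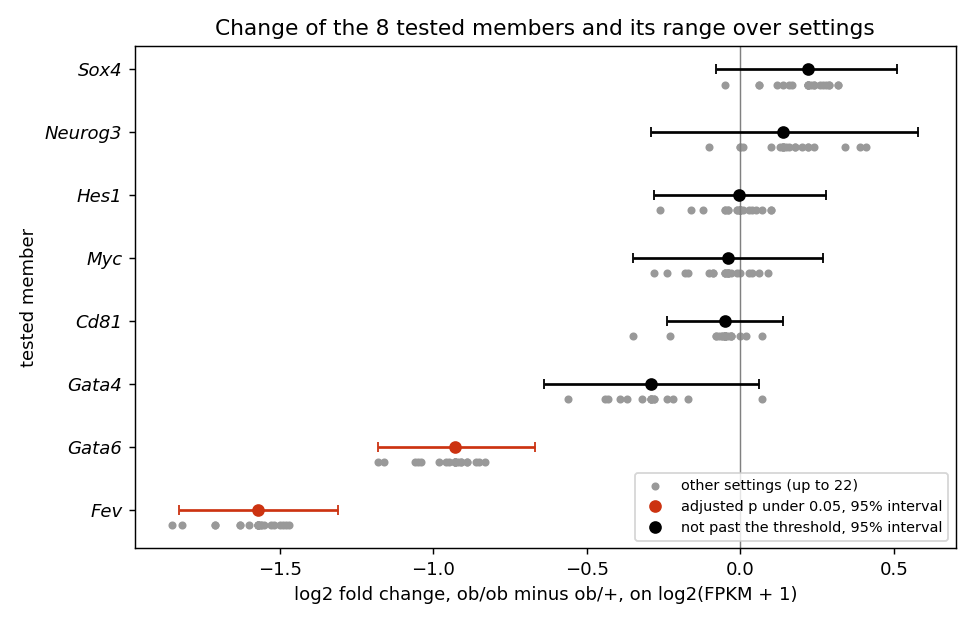
Log2 fold change on log2(FPKM + 1), ob/ob minus ob/+, of the 8 tested genes with its 95% interval (large points and bars) and its value under up to 22 other settings (small grey points). Fev (-1.57) and Gata6 (-0.93) lie below 0 under every setting, and the intervals of the other 6 genes include 0.

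Gata4 (chromosome 14, 63198922 to 63271692, minus strand), the partner of Gata6 in pancreas formation, is known to stay on in adult acinar cells. It was at 1.24, 0.61, 1.04 and 1.86 FPKM in ob/+ 1 to 4. In ob/ob 1 to 4 it was at 1.15, 0.36, 0.86 and 0.72 FPKM. The groups overlapped widely, and exactly 4 libraries reached 1 FPKM, so it only just met the filter.

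The mean of Gata4 was 1.19 ± 0.520 against 0.773 ± 0.328 FPKM (SD, n = 4 each), with a log2 fold change of -0.29 (95% interval -0.64 to 0.06; limma adjusted p = 0.248). In each group the library with the most Gata4, ob/+ 4 and ob/ob 1, was also the one with the most digestive enzyme RNA (26.2% and 12.0%), and the library with the least Gata4, ob/+ 2 and ob/ob 2, the one with the least (7.71% and 3.45%). With summed acinar markers as a covariate the log2 fold change of Gata4 was 0.07 (limma adjusted p = 0.742). That of Gata6 under it was -1.04 (limma adjusted p = 4.92e-06). Gata4 was thus not called with or without the covariate, and the part of acinar cells in either gene was not tested.

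In the GATA family Gata2, a factor of blood vessels and blood cells, was at 1.34 ± 0.178 and 1.45 ± 0.381 FPKM (SD, n = 4 each; limma adjusted p = 0.801), and Gata1, Gata3 and Gata5 stayed at or below 0.25 FPKM in every library. Of 10 tested genes of the family and its cofactors 2 fell (5 with the digestive enzyme genes out of the scaling), Gata6 and Zfpm1, a FOG cofactor that binds GATA proteins. Zfpm1 was at 3.38, 2.80, 3.48 and 3.74 FPKM in ob/+ 1 to 4 and at 2.32, 1.98, 1.82 and 1.70 in ob/ob 1 to 4 (limma adjusted p = 0.00196), without overlap. Among 18 tested pancreas progenitor factors, which include Gata4 and Gata6, Foxa3 and Meis2 fell beside Gata6 and none rose. That is 16.7% called, beside 18.8% over all tested genes. The call of Meis2 (limma adjusted p = 0.0226) was lost under 8 of 22 other settings, and 14 of the 18 were lower with the digestive enzyme genes left out of the scaling. Over all tested genes that scaling called 7112 of 11780 as lower. Without ob/+ 4, 10 of 17 were lower, beside 3728 of 11612 over all tested genes.

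Myc (chromosome 15, 61985391 to 61990374, plus strand) was at 3.69, 5.09, 4.47 and 3.61 FPKM in ob/+ 1 to 4. In ob/ob 1 to 4 it was at 3.93, 5.60, 4.16 and 2.83 FPKM, so the ob/+ range lay wholly within that of ob/ob. The means were 4.21 ± 0.701 and 4.13 ± 1.14 FPKM (SD, n = 4 each; log2 fold change -0.04, 95% interval -0.35 to 0.27; limma adjusted p = 0.877). Within ob/ob, Myc and Hes1 were both highest in library 2 and lowest in library 4.

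Of 18 tested partners and antagonists of MYC only Mnt, a repressor that competes with MYC for MAX, passed, falling from 8.06 ± 1.32 to 5.25 ± 0.885 FPKM (SD, n = 4 each; limma adjusted p = 0.00644). Without ob/+ 4, 8 of the 18 were lower, and 14 with the digestive enzyme genes left out of the scaling. Over all tested genes these alternatives called 3728 of 11612 and 7112 of 11780 as lower. With median centring 2 of the 18 were higher and 2 lower. The relatives Mycn and Mycl were below 1 FPKM in every library. Of 33 tested genes listed as MYC targets of ribosome making and metabolism 12 fell and none rose. That is 36.4% called, beside 18.8% over all tested genes. The median log2 fold change was -0.29 against -0.07 over all tested genes. Tfrc, the transferrin receptor, was at 9.16 ± 0.582 against 4.52 ± 0.545 FPKM and the nucleolar protein gene Gnl3 at 12.7 ± 2.52 against 7.5 ± 1.22 (SD, n = 4 each). Apex1, Eif4a1, Nop56 and Nolc1 fell as well, with log2 fold changes of -0.59, -0.44, -0.46 and -0.50.

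That count of MYC targets depended on the scaling: 4 of 33 were lower and 1 higher when it omitted the 10 most abundant genes, and 30 were lower when it omitted the digestive enzyme genes. Over all tested genes, omitting the digestive enzyme genes called 7112 of 11780 as lower. Leaving out ob/+ 4 gave 20 of the 33 lower, beside 3728 of 11612 over all tested genes. Leaving out any of the other 7 libraries gave 6 to 8 of the 33. Without ob/+ 4 and ob/ob 1 together 19 were lower and 1 higher. Tfrc kept its call under all 22 other settings and Gnl3 under 21.

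Cd81 (chromosome 7, 143052739 to 143067934, plus strand) was the most abundant of the 9 genes and varied least. It was at 43.69, 42.48, 42.89 and 42.73 FPKM in ob/+ 1 to 4 and at 39.60, 42.47, 43.97 and 39.57 FPKM in ob/ob 1 to 4. The groups overlapped, with coefficients of variation of 1.22% and 5.28%. The log2 fold change was -0.05 with a 95% interval from -0.24 to 0.14 (limma adjusted p = 0.735). It passed as lower, at -0.35 (adjusted p = 0.00255), with the digestive enzyme genes left out of the scaling, under which the median of all tested genes was -0.33.

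Of 28 tested tetraspanins and CD81 partners 6 fell and 4 rose, beside 18.8% called over all tested genes. With the digestive enzyme genes left out of the scaling 15 were lower and 3 higher, and without ob/+ 4 the counts were 9 and 5. Over all tested genes the former called 7112 lower and 475 higher of 11780. The latter called 3728 lower and 1104 higher of 11612. Cd9, which forms complexes with CD81, was at 25.97, 17.63, 24.14 and 25.25 FPKM in ob/+ 1 to 4 and at 9.71, 8.67, 12.20 and 10.65 in ob/ob 1 to 4, 2.26-fold lower without overlap (limma adjusted p = 7.53e-07). Ptgfrn, a direct partner of CD9 and CD81, was at 1.46 ± 0.0450 against 0.682 ± 0.170 FPKM; it met the filter through the ob/+ libraries alone, and with no filter the limma adjusted p was 0.00208. Tspan8, Tspan12 and Tspan18 fell. Tspan15 (14.3 ± 0.726 against 24.0 ± 1.54) and Tspan33 (16.2 ± 2.24 against 26.5 ± 2.31; SD, n = 4 each) rose. Cd151 (20.8 ± 1.33 and 21.6 ± 1.33) and the partner Igsf8 (13.4 ± 1.97 and 11.2 ± 1.91; SD, n = 4 each) did not pass.

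**Figure D4:**
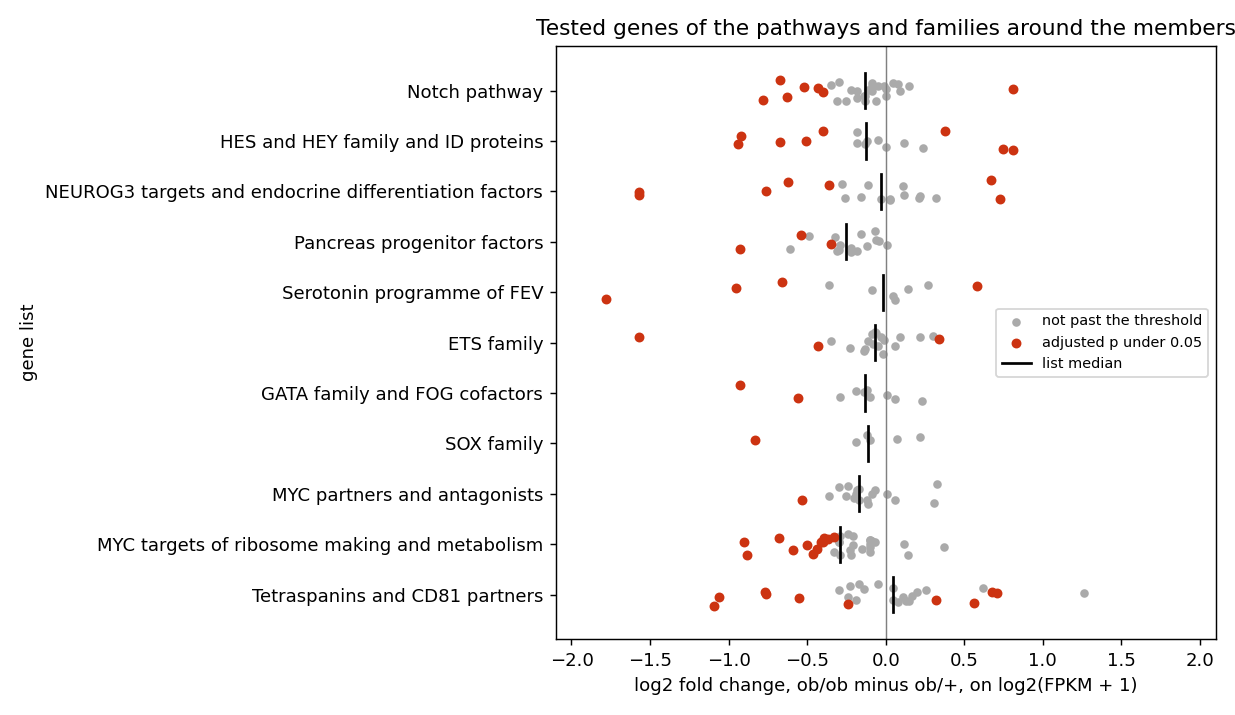
Log2 fold change on log2(FPKM + 1), ob/ob minus ob/+, of the tested genes of 11 pathway and family lists (points; red where the limma adjusted p is under 0.05), with the list median as a black bar. The medians lie between -0.29 (MYC targets) and 0.05 (tetraspanins), the latter at -0.24 with the digestive enzyme genes left out of the scaling. Under that scaling the median over all tested genes was -0.33.

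Ordered by level, the 9 genes spanned from Cd81 at 42.9 FPKM down to Sox11 at 0.0600 in ob/+. Fev was second in ob/+, and its range overlapped that of Sox4 next to it. In ob/ob Fev was sixth, behind Sox4, Hes1, Neurog3 and Myc, and its range overlapped those of its neighbours Myc and Gata6. From Fev to Neurog3 in ob/+ and from Sox4 to Gata6 in ob/ob, every neighbouring pair overlapped over the 4 libraries, so only Cd81 at the top and Gata4 and Sox11 at the bottom stood clear of their neighbours in both genotypes.

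Beside the members, lists of mature and immature beta cell genes were counted. Of 19 tested genes of beta cell maturity 9 fell and 2 rose, among them Mafa (122 ± 12.6 against 54.9 ± 9.18 FPKM; SD, n = 4 each), lower, and Ins2, higher. Of 13 tested genes listed as immature or dedifferentiated 7 fell and 3 rose: Aldh1a3, Cck and Gast rose, and Rbp4, Pyy and Npy were among those that fell. Cck and Gast met the filter through the ob/ob libraries alone, so their rises were built into their being tested; with no filter their limma adjusted p-values were 5.48e-07 and 1.91e-06. The list as named thus held both directions, and its falling members Rbp4, Pyy and Npy are also known as genes of delta, PP or neural cells. Calls were 57.9% of the maturity list and 76.9% of the immature list, beside 18.8% over all tested genes. These lists were put together with earlier results of these libraries known and are no independent evidence of a direction.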

How the data were processed

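The deposited values are FPKM, per library and gene. The unit is inferred from the values and stated neither in the file headers nor in the labels: low values times transcript length tended towards multiples of 1 step per library (0.0556 to 0.0589), though loosely (mean cosine of the phase 0.279 to 0.375, where 1 is exact), so relative depth was similar and absolute depth is unknown. Per the submitters' processing notes the builds were mm10 and GRCm38 and the tools included DESeq2 1.20.0 and Trimmomatic 0.36, with no role stated; the aligner and the quantifier were not given in the sources used here. Precision rests on 4 libraries a group.

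Of 20715 listed genes 3314 had no value. The 11747 genes with at least 1 FPKM in 4 or more libraries were fitted on log2(FPKM + 1) with limma 3.58.1 (R 4.3.3, statmod 1.5.0; eBayes, trend and robust), two-sided, Benjamini-Hochberg adjusted over all of them, with 0.05 as the threshold; such fold changes understate those of low genes. Single genes were also compared by exact permutation over 70 assignments. Alternatives covered pseudocount, filter, scaling, model and libraries.

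The 9 genes and all lists were chosen with earlier results of these data known. Named from each list were up to 6 genes past the threshold with the smallest p, and for each member past it the 3 genes of nearest profile, without predicted genes; other genes were named after their values were seen. Any pair of libraries shared no more than 0.686% identical values, so all 8 were counted separately; log2 values correlated at 0.987 to 0.996 inside a group. Exons of an antisense gene overlap Neurog3, Cd81, Gata6 and Sox4, and strand-aware counting is not stated. Positions are from GENCODE M21 (GRCm38) and promoters from RefSeq. Some genes that the naming rule selects are not reported here.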

Additional observations from a re-analysis of the deposited data

Results flagged for a closer look

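Sox11 in ob/+ was flagged for 1 library far from the others: ob/+ 2 was at 0.10 FPKM and the other 3 at 0.04 or 0.05, a gap of 0.833 of the group's range above Dixon's 95% critical value for 4 libraries. Of 18 groups (9 genes in 2 genotypes) this was the only one flagged, and chance flags about 1 in 20. Values are deposited to 2 decimals.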

How the results depend on the processing

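Fev and Gata6 stayed lower in ob/ob and past the threshold under every alternative in which they were tested (22 and 21). With a filter of 5 FPKM 4 members were tested and 1, Fev, was called, Gata6 no longer entering. With the digestive enzyme genes left out of the scaling 3 were called, Cd81 (-0.35) being added. The number of genes called was 2208. It was 3429 with median centring, 3465 with upper-quartile scaling, 7587 without the digestive enzyme genes and 3663 with equal FPKM sums. It was 663 with a fold threshold of 1.2 and 4000 without ob/+ 4 and ob/ob 1 together, an alternative chosen after seeing the data. Leaving out single libraries gave 1434 (without ob/+ 1) to 4832 (without ob/+ 4). The share of calls that were higher was 43.7%, 67.3% without the 10 most abundant genes, 6.26% without the digestive enzyme genes and 14.1% with equal sums; the median of all tested genes moved from -0.07 to 0.03, -0.33 and -0.23.

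None of the other changes of sign was called. Median centring gave 0.02 for Cd81, 0.07 for Hes1 and 0.03 for Myc. Upper-quartile scaling gave 0.04 for Hes1 and 0.00 for Myc. Without the 10 most abundant genes Cd81 was at 0.07, Hes1 at 0.10 and Myc at 0.06. Without the digestive enzyme genes Neurog3 was at -0.10 and Sox4 at -0.05, and the acinar covariate gave 0.07 for Gata4. Over single libraries left out, Hes1 ran from -0.12 to 0.10, Myc from -0.17 to 0.09 and Neurog3 from 0.00 to 0.34; the causes were not tested. Gata4 met the filter in 4 of these 8 fits (-0.43 to -0.17) and under 16 of 22 alternatives in all. With the replicate number as a block (replicate block) 2674 genes and 2 members were called, Fev at -1.57 and Gata6 at -0.93. Same-numbered libraries correlated in their deviations at -0.22, 0.21, 0.17 and 0.12 for numbers 1 to 4, of which 1 is not over 0.1, so the numbers were not taken to pair the libraries; the best partner carried the same number for 2 of 4. Under the block the PP cell hormone gene Ppy was not called (adjusted p = 0.0537).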
